A study of Mus musculus with 9 samples.

Results

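The miR-17-92 and miR-106b-25 clusters are paralogous groups of miRNA genes, each transcribed as a single precursor that is cut into several mature miRNAs. The 9 mature strands followed here (of 1448 mouse miRNA rows in the read count table) were chosen by name from the 2 clusters and not by their values. They were mmu-miR-17-5p, mmu-miR-18a-5p, mmu-miR-19a-3p, mmu-miR-20a-5p, mmu-miR-19b-3p and mmu-miR-92a-3p from miR-17-92, and mmu-miR-106b-5p, mmu-miR-93-5p and mmu-miR-25-3p from miR-106b-25, named below without the mouse prefix mmu. The libraries were made from the hippocampus of C57BL/6J mice, described in the methods as adult males, with 3 libraries per group. The saline group received 0.9% saline. The LPS group received a single intraperitoneal injection of 1 mg/kg lipopolysaccharide (LPS), a bacterial cell wall component that sets off inflammation, and its labels also name 0.12% saline. The LPS + GAS group received 1 mg/kg LPS and, by its labels, 100 mg/kg gastrodin (GAS), a phenolic glucoside of the orchid Gastrodia elata, 1 h later. LPS was common to the LPS and LPS + GAS groups, and no group received GAS alone. The interval between injection and collection of the sequenced tissue is not in the labels. The labels do not say that each library came from a separate mouse, so p-values measure the spread between these libraries.

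MiRNAs bind messenger RNAs mainly through the seed, the bases near their 5′ end, and lower the output of the bound messages. Members of both clusters are known for promoting cell cycle entry and survival, through targets such as Cdkn1a and Bcl2l11. In the adult hippocampus both clusters have been studied in neural stem and progenitor cells of the dentate gyrus. A further paralogous cluster, miR-106a-363, lies on the X chromosome.

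The mature sequences are shown because the members fall into 4 seed families, of which the miR-17 and miR-92 families span both clusters. Levels are also given by seed family below. All sequences were read from the deposited table, run 5′ to 3′, and were identical to RefSeq mature entries for GRCm38.p6. Capitals mark the seed, bases 2 to 8.
miR-17-5p: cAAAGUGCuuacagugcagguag
miR-20a-5p: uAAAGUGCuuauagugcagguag
miR-106b-5p: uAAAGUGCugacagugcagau
miR-93-5p: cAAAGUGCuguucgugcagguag
miR-18a-5p: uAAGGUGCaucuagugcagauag
miR-19a-3p: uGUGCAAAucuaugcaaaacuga
miR-19b-3p: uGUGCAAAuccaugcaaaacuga
miR-92a-3p: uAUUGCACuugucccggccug
miR-25-3p: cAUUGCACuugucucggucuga
The miR-17 family, with seed AAAGUGC, held miR-17-5p and miR-20a-5p of one cluster and miR-106b-5p and miR-93-5p of the other. MiR-18a-5p, with seed AAGGUGC, differed from that seed by a single base. The miR-19 family was found in miR-17-92 but not in miR-106b-25, and the miR-92 family joined miR-92a-3p to miR-25-3p across the clusters. Counting positions from the 5′ end, miR-17-5p and miR-20a-5p differed at C1U and C12U, and miR-17-5p and miR-93-5p at U10G, A11U, C12U and A13C. MiR-19b-3p and miR-19a-3p differed at C11U alone, a pair whose reads a counting step that allows mismatches could mix.

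In RefSeq coordinates on GRCm38.p6, the build named in the submitters' processing notes, the 6 hairpins of miR-17-92 lay within 836 bp at chr14:115043671-115044506 on the plus strand. They sat in an exon of Mir17hg, a long intergenic non-coding RNA, in the order Mir17, Mir18, Mir19a, Mir20a, Mir19b-1 and Mir92-1. The 3 hairpins of miR-106b-25 lay within 498 bp at chr5:138165321-138165818 on the minus strand, inside Mcm7, which encodes a subunit of the replicative DNA helicase. Mir93 and Mir25 overlapped an annotated exon of a retained-intron transcript of Mcm7, and Mir106b overlapped no annotated exon. MiR-92a-3p and miR-19b-3p each matched a second hairpin, Mir92-2 and Mir19b-2, in the miR-106a-363 cluster at chrX:52741693-52742567, so their reads pool both loci.

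Depth was similar across libraries, from 10119758 to 11457656 reads on miRNAs, and TMM scaling factors ran from 0.914 to 1.19, the highest being LPS library 2. Neuronal marker miRNAs (miR-124-3p, miR-9-5p, miR-128-3p and miR-132-3p) summed to 76580 to 118000 CPM, so the neuronal markers of brain tissue were abundant. Markers of other cell types were also present, and none was at 0 in every library. The 5 red blood cell rows summed to 2065 to 4317 CPM in the saline group, 2189 to 3274 in the LPS group and 4606 to 6222 in the LPS + GAS group, where miR-486a-5p and miR-486b-5p are listed with the same reads. The 8 choroid plexus and ependyma miRNAs summed to 9298 to 27790, 9350 to 21390 and 12050 to 53420 CPM in the same order. The 4 white blood cell and microglia miRNAs summed to 4931 to 5325, 2569 to 6226 and 3679 to 5598 CPM, and the 2 endothelial miRNAs to 14660 to 17140, 13330 to 16790 and 15460 to 16060 CPM. The 3 oligodendrocyte miRNAs summed to 2858 to 4818, 1443 to 3648 and 2505 to 4640 CPM. CPM here means reads per 1000000 reads on miRNAs after TMM scaling. Each read stands for 1 mature strand of 21 to 23 bases, so CPM values of different miRNAs were set side by side with no length correction, although ligation and amplification can favour some sequences.

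MiR-93-5p was the most abundant member. It is the middle hairpin of miR-106b-25 and is known for repressing Cdkn1a, a brake on the cell cycle. Its level was 475, 401 and 427 CPM in replicates 1 to 3 under saline, 316, 358 and 425 under LPS, and 476, 429 and 372 under LPS + GAS. The group means were 434 ± 37.8, 366 ± 54.9 and 426 ± 52.2 CPM (SD, n = 3 each). The lowest values were LPS libraries 1 and 2, and every group overlapped the others.

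MiR-92a-3p, the last strand of miR-17-92 and known for its action in endothelial cells, was next. It stood at 337, 246 and 244 CPM under saline, 261, 220 and 275 under LPS, and 364, 277 and 238 under LPS + GAS. The means were 276 ± 53.0, 252 ± 28.3 and 293 ± 64.3 CPM (SD, n = 3 each). One library stood above the rest in each of the saline and LPS + GAS groups, and the other 7 lay between 220 and 277 CPM.

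MiR-19b-3p, the more abundant strand of the miR-19 family, gave 43.1, 32.1 and 32.2 CPM under saline. It gave 32.6, 27.7 and 35.0 CPM under LPS and 41.1, 35.1 and 37.9 CPM under LPS + GAS. The means were 35.8 ± 6.30, 31.8 ± 3.75 and 38.0 ± 2.99 CPM (SD, n = 3 each). All 3 LPS + GAS libraries were above all 3 LPS libraries, with 35.1 against 35.0 CPM at the boundary, and the saline libraries overlapped both groups.

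MiR-25-3p, the seed partner of miR-92a-3p in the other cluster and known for repressing Cdkn1c, gave 30.0, 25.9 and 21.6 CPM under saline. It gave 19.3, 18.4 and 26.9 CPM under LPS and 27.4, 22.8 and 26.7 CPM under LPS + GAS. The means were 25.8 ± 4.21, 21.5 ± 4.63 and 25.6 ± 2.48 CPM (SD, n = 3 each). LPS libraries 1 and 2 were the lowest of the 9, while LPS library 3 lay among the saline values.

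MiR-20a-5p, which shares its seed with miR-17-5p and is known for repressing E2F transcription factors, gave 28.9, 25.2 and 21.8 CPM under saline. It gave 22.6, 16.4 and 20.2 CPM under LPS and 21.8, 24.7 and 24.5 CPM under LPS + GAS. The means were 25.3 ± 3.59, 19.7 ± 3.14 and 23.7 ± 1.58 CPM (SD, n = 3 each). Among the LPS libraries only library 1 lay within the saline range, while all 3 LPS + GAS libraries did.

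MiR-106b-5p, the first hairpin of its cluster, gave 15.3, 18.7 and 16.1 CPM under saline. It gave 13.8, 9.30 and 18.5 CPM under LPS and 17.3, 9.71 and 15.2 CPM under LPS + GAS. The means were 16.7 ± 1.76, 13.9 ± 4.60 and 14.1 ± 3.91 CPM (SD, n = 3 each). Replicate 2 was the lowest library of both LPS-treated groups. The coefficient of variation of miR-106b-5p was 33.2% in the LPS group, where counting error alone would give 8.31%.

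MiR-17-5p, the founding member of the largest seed family, showed the same layout. It gave 11.0, 11.9 and 13.4 CPM under saline, 10.2, 6.81 and 14.1 under LPS, and 11.1, 8.09 and 10.3 under LPS + GAS. The means were 12.1 ± 1.23, 10.4 ± 3.64 and 9.84 ± 1.56 CPM (SD, n = 3 each). The LPS libraries held both the lowest and the highest value of the 9, a coefficient of variation of 35.0% against 9.61% from counting alone.

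MiR-18a-5p, known in the brain for repressing the glucocorticoid receptor Nr3c1, stood near 4 CPM. It gave 4.78, 4.42 and 4.23 CPM under saline, 4.88, 4.32 and 2.72 under LPS, and 4.29, 4.15 and 4.82 under LPS + GAS. The means were 4.48 ± 0.276, 3.97 ± 1.12 and 4.42 ± 0.352 CPM (SD, n = 3 each). LPS library 3, with 27 reads against 41 to 52 in the other 8, was the one low value. The spread within the saline group was 6.16%, below the 14.5% that counting error gives at this depth, so differences of that size between libraries were not detectable.

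MiR-19a-3p, which shares its seed with miR-19b-3p, was close to absent. Its reads were 3, 1 and 2 under saline, 1, 7 and 3 under LPS, and 3, 2 and 7 under LPS + GAS. It did not reach 10 reads in 3 libraries and was left out of the tests, so 8 of the 9 members were tested among 628 miRNAs. From 1 to 7 reads no difference between the groups could be seen.

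**Figure D1:**
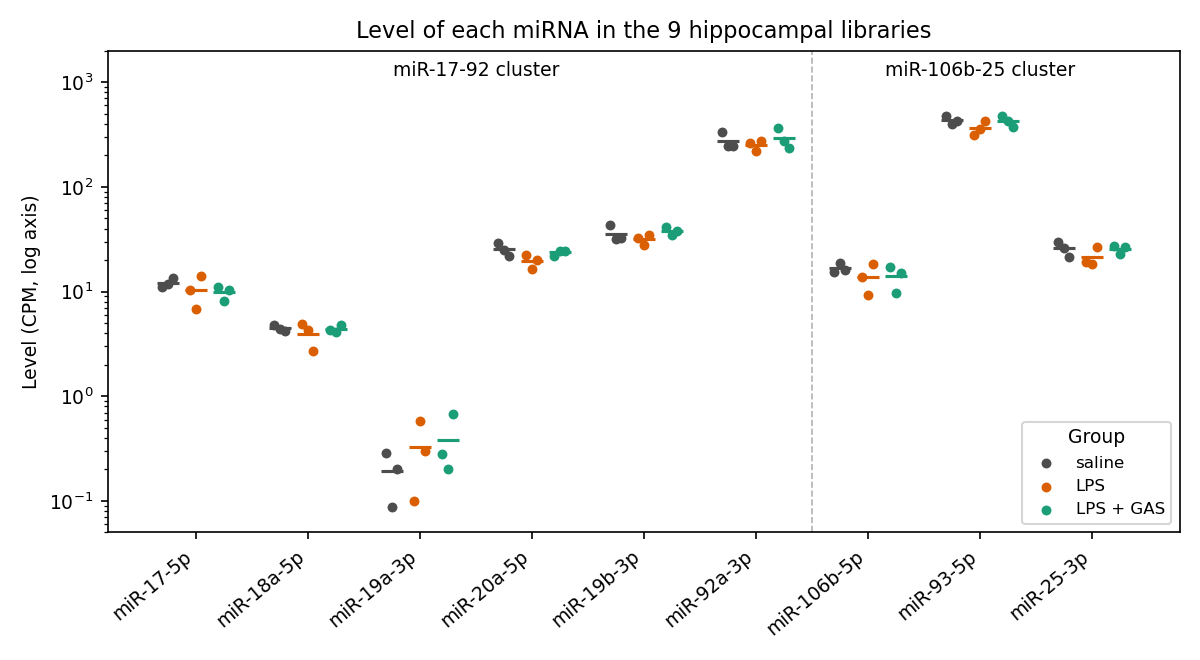
Level of each of the 9 miRNAs in CPM (log axis) in every library, coloured by group, with horizontal lines at the group means of 3 libraries. Levels span from under 1 CPM for miR-19a-3p to above 400 CPM for miR-93-5p, and the 3 groups of each miRNA lie close together.

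The order of the levels held in nearly every library. Averaged over the 9 libraries the members ran from miR-93-5p at 408.8 CPM, rank 116 of 1448 rows, to miR-19a-3p at 0.302 CPM, rank 753. The ranges of neighbouring members did not overlap at 3 steps, from miR-92a-3p to miR-19b-3p (means 7.78-fold apart), from miR-17-5p to miR-18a-5p (2.51-fold) and from miR-18a-5p to miR-19a-3p (14.2-fold). At the other 5 steps the ranges overlapped. Even so miR-93-5p exceeded miR-92a-3p within each of the 9 libraries (1.49-fold between means), and so did miR-19b-3p exceed miR-25-3p, miR-20a-5p exceed miR-106b-5p and miR-106b-5p exceed miR-17-5p. The exception was miR-25-3p against miR-20a-5p, whose means were 1.06-fold apart and whose order held in 6 of 9 libraries.

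Summed over their members, the clusters made up 0.066% to 0.0964% of the reads of a library. MiR-106b-25 gave more reads than miR-17-92 in every library, by 1.05 to 1.47-fold, although it has fewer hairpins. Its summed level was 477 ± 39.0 CPM in the saline group, 402 ± 62.1 in the LPS group and 465 ± 53.7 in the LPS + GAS group (SD, n = 3 each). That of miR-17-92 was 354 ± 61.8, 318 ± 37.3 and 369 ± 65.4 CPM. A single strand dominated each sum, so these totals are largely the levels of miR-93-5p and miR-92a-3p.

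The leading strand kept most of each cluster's reads in all 9 libraries, while the shares of the minor strands varied more. MiR-92a-3p took 75.3% to 82.2% of the miR-17-92 reads and miR-19b-3p 9.28% to 12.0%. MiR-20a-5p took 4.94% to 7.88%, miR-17-5p 2.32% to 4.24%, miR-18a-5p 0.782% to 1.57% and miR-19a-3p 0.0276% to 0.213%. In miR-106b-25, miR-93-5p took 89.9% to 93.0%, miR-25-3p 4.64% to 6.45% and miR-106b-5p 2.11% to 4.19%. The order did not follow position in the hairpin array, and the first hairpin of either cluster, miR-17 or miR-106b, was among the less abundant. Strands of the same cluster differed widely in read number, although ligation and amplification can favour some sequences. The leading strands of miR-17-92, miR-92a-3p and miR-19b-3p, were 7.78-fold apart, and both also pool reads of an X-linked hairpin.

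Read by seed, the clusters held nearly all of some families and little of another. The miR-17 family seed AAAGUGC was carried by 6 rows of the table with a pooled mean of 459.9 CPM. The 4 members made up 98.9% to 99.8% of that pool, miR-93-5p alone 86.6% to 91.5%. MiR-18a-5p held 93.9% to 100.0% of the AAGGUGC reads, and miR-19b-3p 97.9% to 99.7% of the GUGCAAA reads.

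The miR-92 family was the exception. Its seed, AUUGCAC, had a pooled mean of 3447 CPM, of which miR-92a-3p and miR-25-3p together supplied 6.52% to 10.5%. The remainder came mainly from miR-92b-3p, encoded outside the clusters and known from neural progenitors, which stood at 3106 CPM and took 88.3% to 92.6% of the pool. It is printed with miR-92a-3p because the strands share their seed and differ at U10C and G21C over the 21 bases compared, with capitals again marking bases 2 to 8.
miR-92a-3p: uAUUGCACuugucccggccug
miR-92b-3p: uAUUGCACucgucccggccucc
MiR-92b-3p showed fitted log2 differences of 0.05, 0.02 and 0.07 for LPS against saline, LPS + GAS against LPS and LPS + GAS against saline, each with a standard error of 0.21. MiR-32-5p, also of this seed family, had a mean of 42.1 CPM, above the 24.3 CPM of miR-25-3p.

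**Figure D2:**
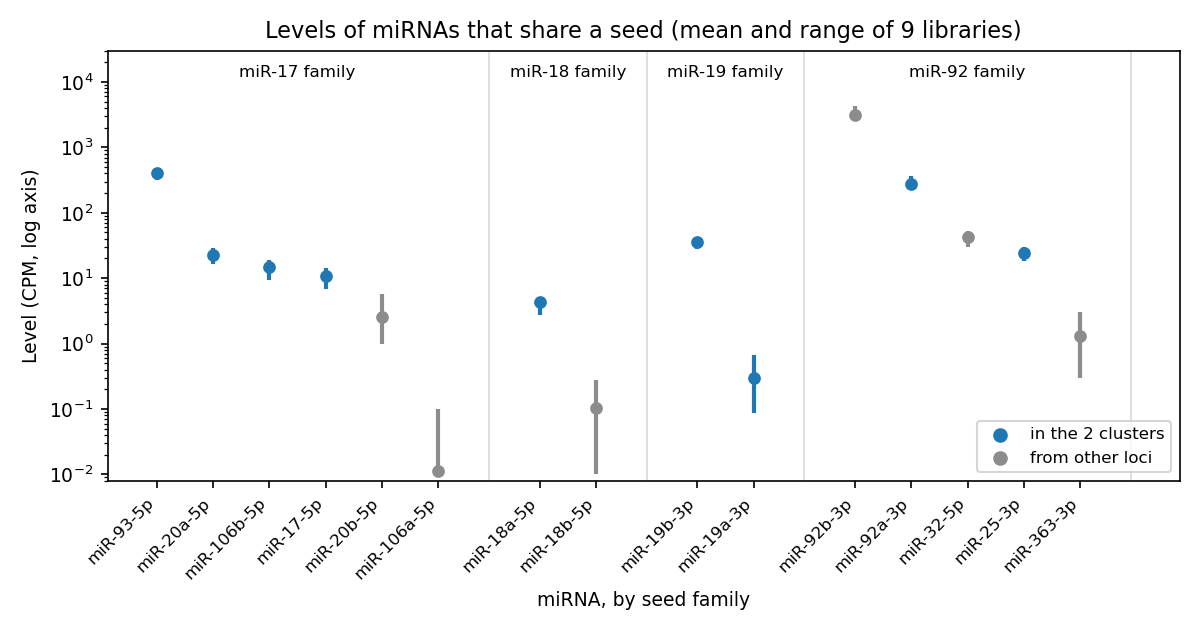
Mean level in CPM (log axis, points) and range over the 9 libraries (bars) of every miRNA row that carries one of the 4 seeds, grouped by seed family, with cluster members in blue and miRNAs of other loci in grey. Bars that reach a level of 0 are drawn down to 0.01 CPM. In the miR-17, miR-18 and miR-19 families a cluster member leads, at 408.8, 4.29 and 35.2 CPM, and in the miR-92 family miR-92b-3p leads at 3106 CPM.

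The third paralogous cluster added little. Of its 10 listed strands 9 had a row in the table and 2 passed the filter on low counts, miR-20b-5p and miR-363-3p. MiR-363-3p had 26, 9 and 3 reads under saline, 11, 12 and 7 under LPS, and 33, 7 and 18 under LPS + GAS. Saline library 1 and LPS + GAS libraries 1 and 3 were its highest, and the groups overlapped. Its fitted log2 difference of LPS + GAS from LPS was 0.98 (SE 0.69). MiR-106a-5p, which differs from miR-17-5p at U10A, had 1 read in all 9 libraries together, and miR-18b-5p, which differs from miR-18a-5p at A18U and A20U, had 0 to 3 reads per library. MiR-19b-2-5p had 0 reads and miR-92a-2-5p 1 read. These are the strands particular to the X-linked copies of the miR-19b and miR-92a hairpins.

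MiR-20b-5p was the best represented strand of miR-106a-363. Its reads were 43, 19 and 14 under saline, 20, 12 and 14 under LPS, and 61, 12 and 44 under LPS + GAS. LPS + GAS libraries 1 and 3 and saline library 1 were high and the groups overlapped. The same 3 libraries had the highest choroid plexus and ependyma sums, at 53420, 24500 and 27790 CPM. The other 6 had 9298 to 21390 CPM. MiR-204-5p made up most of the 3 sums, at 51930, 23720 and 26890 CPM. MiR-211-5p, miR-34b-5p, miR-34c-5p and miR-448-3p were also highest in those libraries. MiR-200a-3p and miR-200b-3p were instead highest in LPS + GAS library 2, at 147.5 and 52.5 CPM. They were lowest in LPS + GAS library 3, at 34.3 and 15.5 CPM. MiR-449a-5p ran only from 31.2 to 52.2 CPM. The part of these markers in the values of miR-20b-5p was not tested. The fitted log2 difference of LPS + GAS from LPS was 1.35 (SE 0.59), with an adjusted p of 0.903 by the quasi-likelihood test of edgeR (Benjamini-Hochberg adjusted), and without LPS + GAS library 1 it was 0.91. MiR-20a-5p, whose sequence differs at U1C and U10C, showed 0.26 (SE 0.20) in the same comparison.

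The other strand of each hairpin shows how the arms were used. Of the 9 opposite strands 8 had a row and 4 passed the filter. MiR-17-3p was the most abundant, at 28 to 60 reads per library, and took 22.0% to 35.9% of the reads of its hairpin. Over all libraries miR-17-5p had 2.67 reads for each read of miR-17-3p, the least unequal pair, whereas miR-93-5p had 496 for each read of miR-93-3p, the most unequal. The opposite strand took 3.85% to 27.0% for miR-18a, 3.61% to 6.33% for miR-25 and 1.24% to 4.95% for miR-106b. It took 0.879% to 2.35% for miR-19b, 0.0% to 1.82% for miR-20a, 0.113% to 0.760% for miR-92a and 0.126% to 0.282% for miR-93. The ranges for miR-18a, miR-20a, miR-19b and miR-106b rest on 10 or fewer reads of the opposite strand per library. For miR-19b and miR-92a the member reads also pool the X-linked hairpin, so their shares are not those of a single hairpin.

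MiR-92a-1-5p, the opposite strand made by Mir92-1 of miR-17-92 and not by its X-linked copy, was the 1 of 4 tested opposite strands with an unadjusted p under 0.05 for LPS + GAS against saline, a level that 3.34% of all miRNAs passed. No tested opposite strand passed it in the other comparisons. Its reads were 4, 13 and 5 under saline, 16, 15 and 11 under LPS, and 26, 21 and 10 under LPS + GAS. Saline libraries 1 and 3 were the lowest, and saline library 2 lay within the range of both other groups. The log2 difference of LPS + GAS from saline was 1.40 (SE 0.48, 95% interval 0.34 to 2.47), with an unadjusted p of 0.0152 and an adjusted p of 0.998 by edgeR's quasi-likelihood test. That of LPS from saline was 0.92 (SE 0.49). Leaving out saline library 2 raised these to 2.08 and 1.59, and leaving out saline library 1 lowered them to 1.17 and 0.68. MiR-92a-3p, whose reads pool the same hairpin and its X-linked copy, showed 0.09 (SE 0.22) and -0.13 (SE 0.22).

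**Figure D3:**
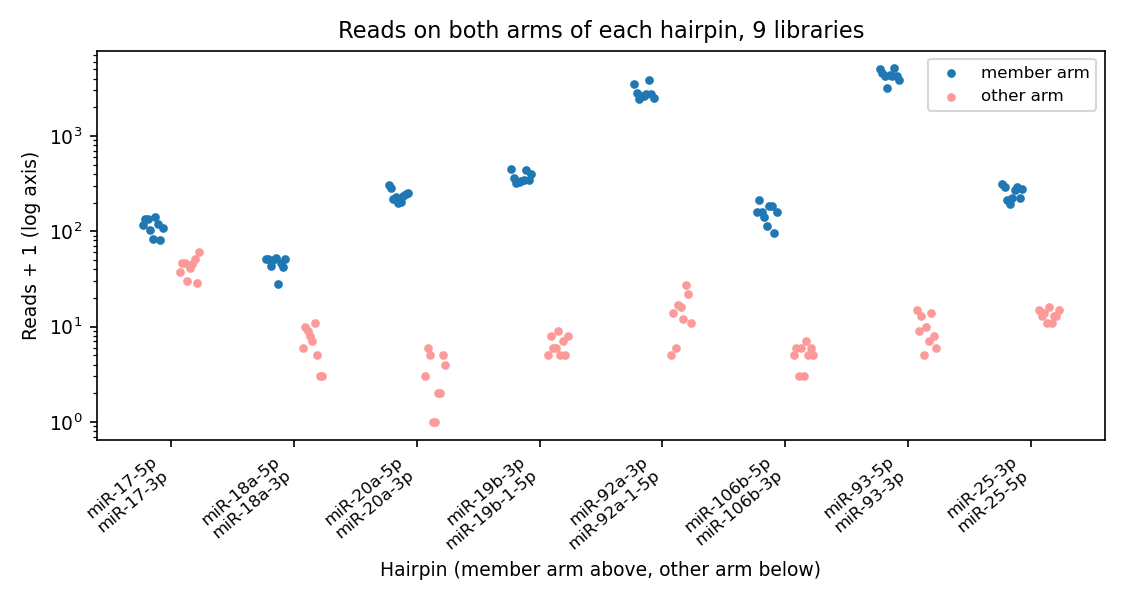
Reads plus 1 (log axis) on the member arm (blue) and the other arm (pink) of 8 hairpins, 1 point per library. MiR-17 has the closest arms, with 28 to 60 reads on miR-17-3p, and miR-93 the widest gap, with 4 to 14 reads on miR-93-3p. Reads of miR-19b-3p and miR-92a-3p also pool an X-linked hairpin.

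LPS against saline asked whether a single LPS injection changed these miRNAs. No member was called: 0 of 8 reached an adjusted p of 0.05 with a log2 change of at least 1, and the share called over all 628 miRNAs was 0%. The adjusted p was 0.992 for each member by the quasi-likelihood test of edgeR, adjusted after Benjamini and Hochberg. No member had an unadjusted p under 0.05 by edgeR, DESeq2 or limma-voom, where 2.39% of all miRNAs did by edgeR. No member had groups that did not overlap, against 3.82% of all miRNAs.

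The fitted values lay below 0 for all 8 members, with a median log2 difference of -0.23 beside -0.04 over all miRNAs, of which 42.5% were above 0. MiR-20a-5p was farthest from 0, at -0.36 (SE 0.20, 95% interval -0.81 to 0.09, unadjusted p 0.106 by edgeR). MiR-106b-5p stood at -0.27 (SE 0.30), miR-25-3p at -0.26 (SE 0.22) and miR-93-5p at -0.25 (SE 0.18). MiR-17-5p stood at -0.22 (SE 0.28), miR-19b-3p and miR-18a-5p at -0.17 (SE 0.19 and 0.24) and miR-92a-3p at -0.13 (SE 0.22). For 5 of the 8 members the difference was within 1 standard error of 0. The members share libraries and precursors, so 8 values on 1 side of 0 are not 8 separate observations. The side of 0 held for all 8 with DESeq2 size factors and with library totals alone, where the medians were -0.18 and -0.16. It turned for miR-17-5p without LPS library 2 (0.04), for miR-18a-5p without LPS library 3 (0.04), and for miR-19b-3p (0.02) and miR-92a-3p (0.08) without saline library 1. MiR-106b-5p moved to -0.01 without LPS library 2 and to -0.53 without LPS library 3. MiR-25-3p moved to -0.45 without LPS library 3, and without saline library 1 miR-25-3p was -0.10, miR-93-5p -0.13 and miR-20a-5p -0.21. The median of the 8 was -0.09 without LPS library 2, -0.12 without saline library 1 and -0.37 without LPS library 3.

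Every 95% interval lay inside a log2 change of 1 in either direction, the lowest bound being -0.94 for miR-106b-5p. The highest bound was 0.41, also for miR-106b-5p, so the intervals reached farther below 0 than above it. A change of 2-fold or more between LPS and saline lay outside the interval of each tested member. In whole hippocampus, fewer cells that make a miRNA and less of it per cell cannot be told apart. Beside these values, the oligodendrocyte markers had a median log2 difference of -0.61, the choroid plexus and ependyma markers -0.53 and the red blood cell rows -0.36, each with all of its rows below 0. The white blood cell and microglia markers had a median of -0.02, with 2 of 4 below 0. The neuronal markers had a median of 0.21, with 3 of 4 above 0, and the endothelial markers -0.03, with 1 of 2 below 0. In LPS against saline no miRNA of these lists was called. MiR-486a-5p and miR-486b-5p, which share their reads, were below every saline library in all 3 LPS libraries. At the boundary were 39.46 CPM in LPS library 2 and 40.21 CPM in saline library 3. This separation depends on scaling, because LPS library 2 had 475 reads against 453 in saline library 1 and 399 in saline library 3. The part of these 2 rows in the members' values, and that of the other markers, was not tested.

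LPS + GAS against LPS asked whether gastrodin changed these miRNAs in LPS-treated mice. No member was called (0 of 8, against 0% of all miRNAs), and none had an unadjusted p under 0.05 by edgeR, DESeq2 or limma-voom, against 3.66% of all miRNAs by edgeR. Adjusted p-values by edgeR's quasi-likelihood test ran from 0.903 to 0.996. Of the 8 fitted differences 7 were above 0 and 1 below, with a median of 0.22 beside 0.0030 over all miRNAs, of which 50.6% were above 0.

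MiR-20a-5p and miR-19b-3p had the highest values, at 0.26 each (SE 0.20 and 0.19). MiR-25-3p followed at 0.25 (SE 0.22), then miR-92a-3p and miR-93-5p at 0.22 (SE 0.22 and 0.18) and miR-18a-5p at 0.15 (SE 0.24). MiR-106b-5p at 0.02 (SE 0.30) and miR-17-5p at -0.08 (SE 0.28) stood nearest to 0. These last strands share a seed with miR-93-5p and miR-20a-5p, so the values did not sort by seed or by cluster. MiR-19b-3p was the 1 member whose groups did not overlap, which 8.6% of all miRNAs also showed, 4.14% with the higher level under LPS + GAS. Its separation depends on scaling, with 347 reads in LPS + GAS library 2 and 348 in LPS library 3 at the boundary. For miR-106b-5p the sign turned with library totals alone (-0.03) and without LPS library 2 (-0.19), LPS + GAS library 1 (-0.15) or LPS + GAS library 3 (-0.02). For miR-17-5p it turned without LPS library 3 (0.21) or LPS + GAS library 2 (0.05), and for miR-18a-5p without LPS library 3 (-0.05). Without LPS + GAS library 1 miR-92a-3p moved to 0.05, and without LPS + GAS library 3 to 0.37. Without LPS library 3 miR-25-3p was 0.44 and miR-93-5p 0.34, and without LPS library 2 miR-20a-5p was 0.16 and miR-25-3p 0.16. MiR-93-5p was 0.12 without LPS library 1.

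The red blood cell rows had a median log2 difference of 1.04 in this comparison. Counting miR-486a-5p and miR-486b-5p once, as they share their reads, 3 of 4 had an unadjusted p under 0.05, against 3.66% of all miRNAs. The choroid plexus and ependyma markers had a median of 1.14 and the oligodendrocyte markers 0.46, all of them above 0. The 4 white blood cell and microglia markers were also above 0, with a median of 0.27, and miR-223-3p stood at 1.11 (SE 0.41, unadjusted p 0.0238 by edgeR) with all LPS + GAS libraries above all LPS libraries. The neuronal markers had a median of -0.08, with 3 of 4 below 0, and the endothelial markers -0.08, with 1 of 2 below 0. No row of these lists was called. Whether these cells account for any of the members' values was not tested. This comparison and that of LPS with saline use the same 3 LPS libraries, so a low LPS library moves both in opposite directions.

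LPS + GAS against saline set the combined treatment against saline-treated tissue. No member was called (0 of 8, against 0.159% of all miRNAs, 1 row) and none had an unadjusted p under 0.05 by edgeR, DESeq2 or limma-voom, against 3.34% of all miRNAs by edgeR. Adjusted p-values by edgeR's quasi-likelihood test ran from 0.998 to 0.999. The median of the 8 members was -0.02, beside -0.03 over all miRNAs, and 2 of 8 were above 0 beside 44.1% of all miRNAs. No member had groups that did not overlap, against 7.32% of all miRNAs.

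MiR-17-5p and miR-106b-5p were lowest, at -0.30 (SE 0.28, 95% interval -0.91 to 0.32) and -0.25 (SE 0.30, 95% interval -0.92 to 0.43). Without LPS + GAS library 2 they were -0.17 and -0.04, and without LPS + GAS library 1 miR-106b-5p was -0.38. The other 6 lay between -0.10 for miR-20a-5p and 0.09 for miR-19b-3p and miR-92a-3p. Without saline library 1 the last 2 values were 0.29 and 0.30, and without saline library 3 that of miR-19b-3p was 0.02. MiR-93-5p stood at -0.03 (SE 0.18), miR-18a-5p at -0.02 (SE 0.24) and miR-25-3p at -0.01 (SE 0.22). The sign of these last values turned with DESeq2 size factors, to 0.03, 0.04 and 0.04, so no direction can be given for them. For 7 of the 8 members the value was within 1 standard error of 0. The highest upper bound was 0.57, for miR-92a-3p.

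**Figure D4:**
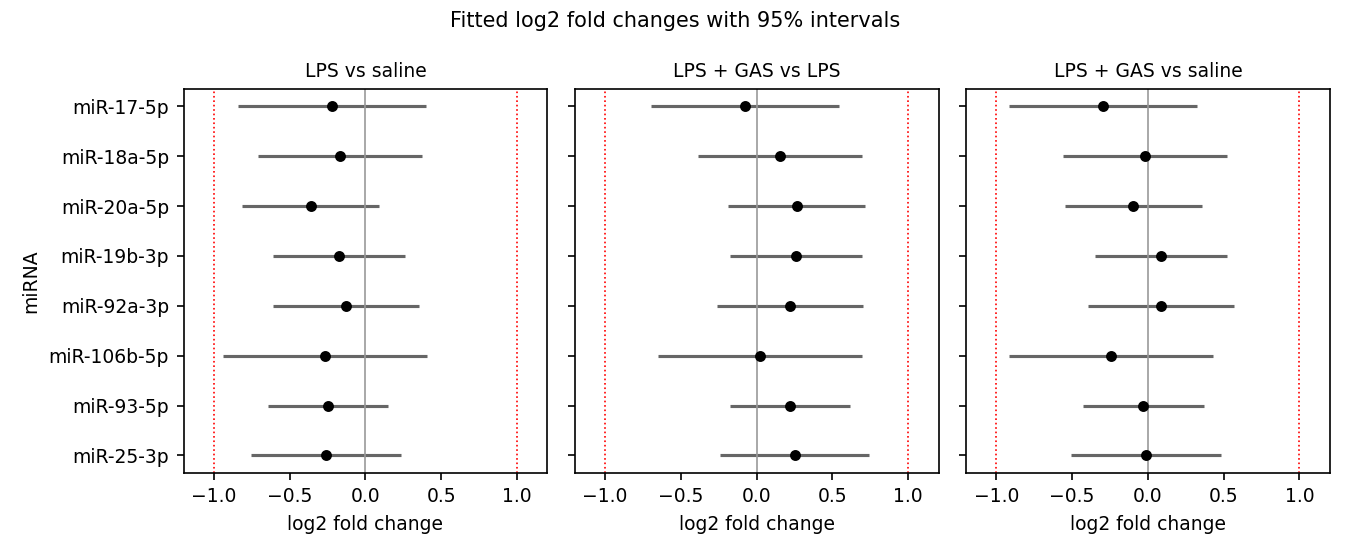
Fitted log2 fold changes (points) with 95% intervals (lines) of the 8 tested miRNAs in the 3 comparisons, with dotted lines at the minimum change of 1 in either direction. Every interval crosses 0 and stays inside the dotted lines.

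Single libraries stood apart for several members at once. LPS library 2 had the lowest level of all 9 libraries for 6 of the 8 tested members, and saline library 1 the highest for 3. The other two were miR-93-5p, lowest in LPS library 1, and miR-18a-5p, lowest in LPS library 3. The count of 6 depends on scaling, because LPS library 2 has the highest TMM factor: it was 5 with DESeq2 size factors and 1 with library totals alone. The same library had the lowest oligodendrocyte sum (1443 CPM), endothelial sum (13330 CPM) and white blood cell and microglia sum (2569 CPM). MiR-150-5p alone supplied 2547 CPM of the last sum. MiR-223-3p of that list was not lowest there, at 5.90 CPM against 3.78 CPM in LPS library 1. The endothelial rank depends on scaling, as miR-126a-3p had 156466 reads there against 136061 in LPS library 1. The part of these markers in the members' values was not tested.

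**Figure D5:**
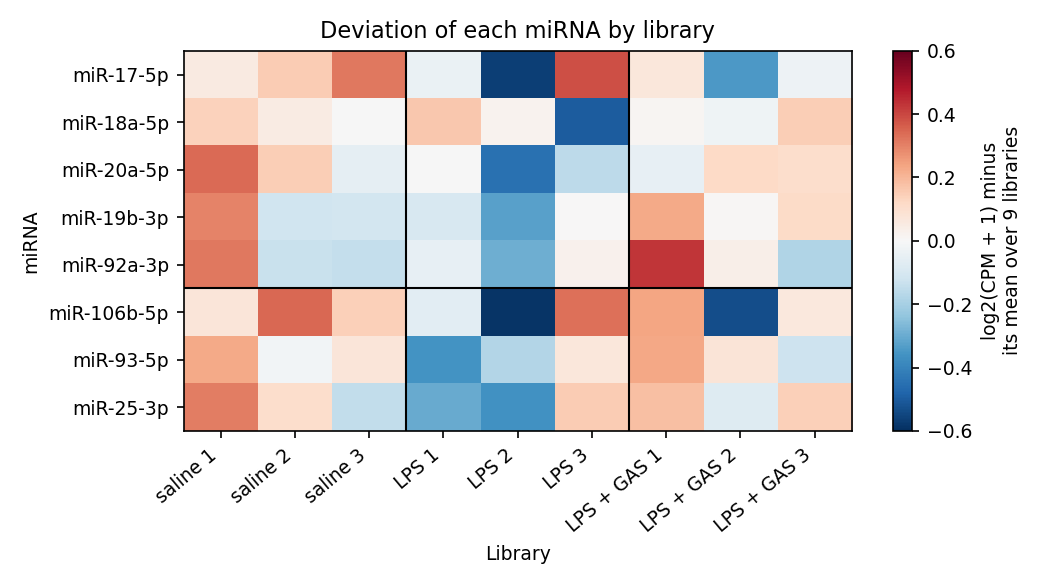
Deviation of log2(CPM + 1) from its mean over the 9 libraries for the 8 tested miRNAs, miR-17-92 above the horizontal line and miR-106b-25 below it, with vertical lines between groups. Blue cells gather in LPS library 2, and miR-17-5p and miR-106b-5p have nearly the same row, low also in LPS + GAS library 2.

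Likeness between members was measured as the root mean square difference of log2(CPM + 1), centred on each miRNA's own mean, over the 9 libraries. The closest pair was miR-19b-3p and miR-25-3p (0.12), followed by miR-19b-3p and miR-92a-3p (0.12) and miR-17-5p and miR-106b-5p (0.13). Of these pairs, miR-19b-3p and miR-92a-3p lie in the same cluster and the other two span both clusters. Over the 13 pairs within a cluster the median was 0.249, and over the 15 pairs between clusters 0.251. These medians were nearly equal, a description over the same 9 libraries. Distances of members with few reads, such as miR-18a-5p at 27 to 52 reads, include counting error. MiR-19b-3p and miR-92a-3p also pool a second locus, so nothing is concluded on sharing a precursor. The widest pair was miR-18a-5p and miR-106b-5p (0.413), and in LPS library 3 miR-18a-5p was at its lowest while miR-106b-5p lay above its own mean.

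Among the 627 other tested miRNAs, miR-106b-5p was the closest of all to miR-17-5p. Outside the clusters the closest were miR-365-3p (0.158), miR-935 (0.163) and miR-1930-5p (0.171), where the median miRNA stood at 0.375. For miR-93-5p the closest outside the clusters were miR-126a-3p (0.107), an endothelial miRNA, miR-129-5p (0.110) and miR-423-3p (0.120), where the median stood at 0.323. Of its fellow members, miR-19b-3p ranked 14, miR-25-3p 16 and miR-92a-3p 18, while miR-106b-5p, from the adjacent hairpin, ranked 301.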

How the data were processed

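Small RNA libraries of mouse hippocampus were made for the BGISEQ-500 platform per the labels. The authors deposited read counts per mature miRNA and library, with the genome build GRCm38.p6. The sources used here give no aligner, mismatch setting or miRNA release. A further deposited column per library, named exp, holds whole-number counts that never exceed the read counts (96.6% to 100% of them for the members). How it was made is not stated and it served only as an alternative. Every per-library column was mapped to a sample. The table also holds the authors' group averages and their own fold changes and p-values, which were not used.

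Counts were tested with edgeR 4.0.16 in R 4.3.3 (TMM scaling, glmQLFit, glmQLFTest) over 628 of 1448 miRNAs, those reaching 10 reads in 3 or more libraries, with all 9 libraries in 1 model and a mean per group. P-values were adjusted by the Benjamini-Hochberg method over all 628. Calls needed an adjusted p no higher than 0.05 plus a log2 change of 1 or more in either direction, the thresholds of the study. SEs and 95% intervals came from the fit. The code was tested on simulated data. Named were the 9 members, their opposite strands, the miR-106a-363 cluster, seed relatives, marker miRNAs and the 3 miRNAs most like miR-17-5p and miR-93-5p. The members and lists were chosen with earlier results of these data known. Replicate pairs within a group differed far beyond counting error (chi-square per degree of freedom 278 to 709). No files of the same group therefore held the same library within counting error. This does not show that each library came from a separate RNA preparation or mouse, and pairs from different groups were not compared in this way. The timing of GAS is given as 1 h after LPS in the labels and as concurrent in part of the methods, and was not settled here. Read counts carry no molecular identifiers, so counting error is a lower limit. Same-numbered saline and LPS + GAS libraries deviated together from their group means across miRNAs (r 0.296 to 0.37), a pairing taken from these correlations alone and not from the labels. The replicate block was an alternative, together with DESeq2 1.42.0, limma-voom 3.58.1, other filters and each library left out.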

Additional observations from a re-analysis of the deposited data

How the results depend on the processing

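Under each of the 21 alternatives 0 members were called in each comparison, also with the replicate block, which changed no call, and with no minimum fold change. Same-numbered libraries were correlated across miRNAs at -0.284 to 0.317 between LPS and saline and at -0.274 to 0.0466 between LPS + GAS and LPS, where not every library was closest to its own number. Of 160 member values per comparison, 156 kept their sign for LPS against saline, 153 for LPS + GAS against LPS and 128 for LPS + GAS against saline, and the lowest adjusted p-values by any tool were 0.988, 0.638 and 0.977. Scaling by library totals alone was chosen after seeing the data, and it turned miR-106b-5p in LPS + GAS against LPS (-0.028). With all 9 libraries, the other turns came in LPS + GAS against saline. MiR-18a-5p became 0.038 with DESeq2 size factors and with the DESeq2 test, 0.031 with no filter, 0.018 with at least 50 reads and with exp values, and 0.043 with close relatives summed. MiR-93-5p became 0.031 with both DESeq2 settings, 0.025, 0.018 and 0.0065 with no filter, at least 50 reads and exp values. MiR-25-3p became 0.043 with both DESeq2 settings, 0.035, 0.025 and 0.022 with the same 3. The cause was not tested. Leaving out 1 library at a time gave, for LPS against saline, -0.50 to 0.043 for miR-17-5p, -0.34 to 0.039 for miR-18a-5p, -0.25 to 0.023 for miR-19b-3p and -0.21 to 0.080 for miR-92a-3p. For LPS + GAS against LPS it gave -0.30 to 0.21 for miR-17-5p, -0.054 to 0.32 for miR-18a-5p and -0.19 to 0.28 for miR-106b-5p. For LPS + GAS against saline it gave -0.057 to 0.076 for miR-18a-5p, -0.19 to 0.058 for miR-20a-5p, -0.042 to 0.30 for miR-92a-3p, -0.061 to 0.12 for miR-93-5p and -0.13 to 0.15 for miR-25-3p. MiR-92a-1-5p in LPS + GAS against saline stayed above 0 under the 19 alternatives that could be run (1.17 to 2.08), as it has too few reads for the minimum of 50. With 3 libraries a group the median SE of a log2 difference was 0.28, and miR-19a-3p was too shallow to test.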

Other observations

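Pooled by seed, the miR-17 family stood at 490.9 ± 39.4 CPM in the saline group, 412 ± 59.8 in the LPS group and 477 ± 53.2 in the LPS + GAS group (SD, n = 3 each), values that overlapped and that follow miR-93-5p. The miR-19 family stood at 36.0 ± 6.38, 32.1 ± 3.57 and 38.4 ± 3.02 CPM. The miR-92 family stood at 3367 ± 287, 3440 ± 221 and 3533 ± 1040 CPM, the wide spread of the LPS + GAS group coming with 4283 CPM of miR-92b-3p in its library 1 against 2519 and 2699 CPM in the others.

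MiR-18a-3p, the opposite strand of miR-18a-5p, had 5, 9 and 8 reads under saline, 7, 6 and 10 under LPS and 4, 2 and 2 under LPS + GAS. Each LPS + GAS library lay below each library of the other groups, with 4 against 5 reads at the boundary. Among tested miRNAs 8.6% had groups that did not overlap for LPS + GAS against LPS, and 7.32% for LPS + GAS against saline. That share was not taken for rows below the filter. With at most 10 reads miR-18a-3p did not reach the filter and was not tested, and it was singled out after its values were seen.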
